A study of Mus musculus with 8 samples.

Results

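Differentiating neural progenitor cells that carried a hairpin against FUBP1 were compared with differentiating cells that carried non-targeted (NT) hairpins, as 1 library (FUBP1-D) against 2 (named 7 and GFP-D), which are 3 of the 8 libraries of the series. The members were taken from the labels alone: each gene's level in FUBP1-D was set against 7 and against GFP-D, and the differences that held against both are described. All cells were mouse brain progenitors of the FvB/C57BL/6 background, infected with lentivirus and selected with puromycin for 3 days. The 3 libraries came from cells differentiated for 5 days in neurobasal medium supplemented with B27. A single CIC-targeted library (CIC-D) had the same medium. The proliferating counterparts (NT libraries TRC and GFP, and the library FUBP1) were grown in N2 medium that contained EGF and bFGF, both at 20 ng/ml. The names 7 and GFP-D differ, but the labels do not say whether the control constructs differed or the cultures were separate. The p-values therefore measure only the spread between libraries, which may be technical. Neither the hairpin sequences nor the number of hairpins per gene is stated in the sources used here.

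FUBP1 (far upstream element-binding protein 1) binds single-stranded DNA and RNA. It is known as an activator of Myc transcription and as a splicing regulator, and its gene is mutated in some oligodendrogliomas. Neural progenitors divide in the presence of EGF and bFGF, and on growth factor withdrawal most leave the cell cycle and take on astrocytic, neuronal or oligodendrocytic features. Cells that leave the cycle lose the transcripts of the mitotic machinery, which normally build up in the phase before division and are cleared after it. The title of the series concerns the splicing of LSD1 (gene Kdm1a), a histone demethylase, and terminal differentiation. Expression is given in FPKM, which corrects fragment numbers for transcript length and sequencing amount, with 1 value per gene, so splice isoforms were not analysed here.

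The targeted transcript was only slightly lower under its label. The gene Fubp1 lies on chromosome 3 (151873422 to 151899794 in mm9), and its level was 21.6 FPKM in FUBP1-D, 24.8 in 7 and 25.4 in GFP-D. The FUBP1-D level was thus 87.1% of the first control and 84.9% of the other, and CIC-D stood at 26.9. The log2(FPKM + 1) difference from the NT mean was -0.21 (SE 0.78, limma, adjusted p = 0.9996), far inside its error. The proliferating NT libraries, at 50.2 in TRC and 12.4 in GFP, lay further apart than that, with FUBP1 at 34.8 between them. Every statement below is therefore about the library labelled FUBP1-D, and protein was not measured. Kdm1a stood at 46.3 FPKM against 48.8 and 50.6 (difference -0.10, SE 0.32). Cic, which encodes the transcriptional repressor capicua, stood at 32.1 against 42.0 and 35.3.

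The FUBP family list, which also holds Myc and D cyclins, did not stand apart as a group. Of 8 kept genes 3 lay above both, 3 below and 2 between. The median was 0.19 from the NT mean and -0.022 against GFP-D alone. Values of the D cyclins are given below with cell cycle control. Myc, at 15.2 FPKM, lay between the controls at 10.6 and 18.1. The paralog Fubp3 was above both (37.4 against 33.8 and 28.6), Khsrp, another relative and an RNA decay factor, was below both (26.5 against 29.3 and 33.2), and Puf60, a splicing factor known as a FUBP1-interacting repressor, was above both (123 against 89.9 and 108). Of the 16 kept LSD1 complex genes 7 lay above both, 4 below and 5 between, with a median difference of 0.06. Hdac1, a deacetylase of that complex, stood at 52.9 FPKM against 28.6 and 38.6, and Hdac2 at 72.0 against 51.4 and 49.3. Among 37 splicing factors 16 lay above both and 5 below (median 0.13). Srsf3, an SR protein, stood at 73.2 FPKM against 26.8 and 54.6, while Srrm4, a neural splicing activator, was low in all 3 libraries (0.301, 1.03 and 1.15).

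Across 11968 kept rows (at least 1 FPKM in 2 or more of the 8 libraries), FUBP1-D lay above both controls in 4175 (34.9%), below both in 3385 (28.3%) and between them in 4408 (36.8%). These shares are the background for every list below. More than 1 above both on the log2(FPKM + 1) scale were 149 rows (1.24%), and more than 1 below both were 91 (0.760%). Of the 149 genes, 90 reached 5 FPKM in at least 1 of the 3 libraries, and of the 91 genes, 86 did. Both differences share the FUBP1-D value, so they are not independent of each other. Against 7 alone 5.36% of rows differed by more than 1 (2.72% above and 2.65% below), and against GFP-D alone 9.73% did (5.21% above and 4.51% below). The controls differed by more than 1 from each other in 9.56% of rows, with 7 above in 5.39% and below in 4.17%. By this count FUBP1-D was nearer to 7 than 7 was to GFP-D. With limma over 6 group means, 0 genes passed an adjusted p of 0.05 in FUBP1-D against NT, and 161 had an unadjusted p under 0.05, where 5% of the rows would be 598. The smallest adjusted p was 0.9996. Just inside the threshold lay Pdgfrl (21.4 FPKM against 10.1 and 4.70) and Whamm (6.27 against 13.5 and 18.7), and just outside it Sipa1l1 (34.2 against 16.6 and 10.9) and Gm14378 (6.53 against 14.0 and 19.1).

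**Figure D1:**
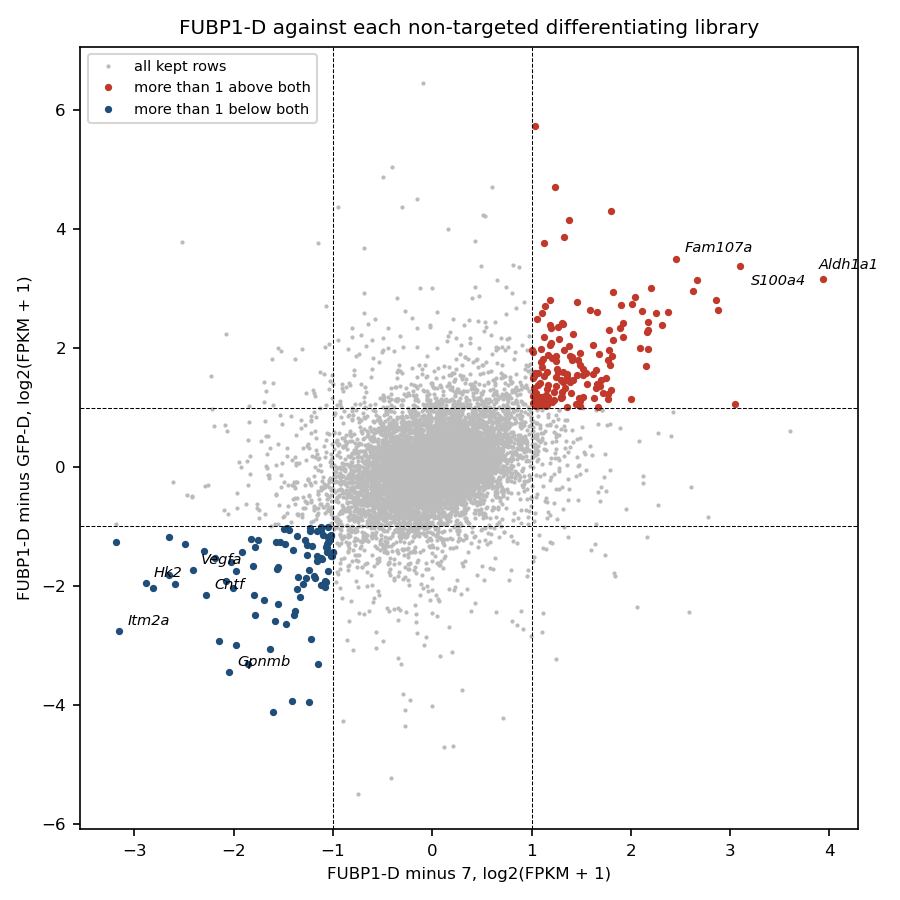
Each point is a kept row. The horizontal axis is FUBP1-D minus 7 and the vertical axis FUBP1-D minus GFP-D, both on the log2(FPKM + 1) scale. The 149 rows more than 1 above both controls are red, the 91 more than 1 below both are dark blue, and dashed lines mark differences of 1.

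The libraries resembled each other by state. The correlation of log2(FPKM + 1) across the kept rows, a description over genes of single libraries, was 0.959 between FUBP1-D and 7, 0.929 between FUBP1-D and GFP-D, and 0.927 between the controls. With the proliferating library TRC it was 0.832 for FUBP1-D, 0.795 for 7 and 0.760 for GFP-D. With the other proliferating NT library, GFP, it was 0.873, 0.862 and 0.881, so the order was not the same. Summed FPKM were 426984 in FUBP1-D, 433488 in 7 and 435046 in GFP-D, and 11345 to 11529 rows reached 1 FPKM. The files give no fragment counts, so the depth is unknown. Of 21 progenitor genes 20 passed the filter on low values. Among them were Sox2 (238, 300 and 327 FPKM in FUBP1-D, 7 and GFP-D) and Nes (88.4, 42.3 and 97.0). Levels varied widely between members, and the lower Pax6 and Nr2e1 are given below. Of 12 microglial markers 6 were listed at 0 in all 3 libraries and 10 stayed under 1 FPKM, with sums of 2.72, 6.14 and 3.996. Sums of 10 endothelial markers were 2.22, 3.26 and 2.18, of 12 mesenchymal markers 11.3, 17.7 and 18.2, and of 9 ependymal markers 47.3, 41.9 and 44.8.

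The genes furthest above both controls were Aldh1a1, S100a4 and a run of mitotic genes. Aldh1a1 (chromosome 19, 20676472 to 20717952, mm9), which oxidises retinal to retinoic acid, stood at 32.7 FPKM in FUBP1-D, 1.21 in 7 and 2.79 in GFP-D, a log2 difference of 3.54 (SE 0.59). It was also at 11.6 in CIC-D, above both controls, so it was not high in FUBP1-D alone. Its neighbour Aldh1a7, a close relative that may share reads with it, stood at 4.12 against 0.139 and 0.0428. S100a4 (chromosome 3, 90407692 to 90409967, mm9), a calcium-binding protein, stood at 311 FPKM against 35.3 and 29.0, a difference of 3.24 (SE 0.48). The level in CIC-D was 15.4, and the proliferating libraries TRC, GFP and FUBP1 stood at 409, 210 and 241, so the FUBP1-D level lay within the proliferating range. The difference of S100a4 from NT, set against that in the proliferating state, was 3.52 (SE 0.68, limma interaction, adjusted p = 0.9995). Over all rows that interaction gave 0 calls, and 99 rows had an unadjusted p under 0.05. Non-mitotic genes with large margins included Timp4, a metalloprotease inhibitor (58.1 against 10.9 and 10.3, with CIC-D at 32.5), Ccdc3 (17.5 against 1.99 and 1.38), Fam107a (11.1 against 1.20 and 0.0654) and Pex5l (15.2 against 2.52 and 1.02). Gjc3, a glial connexin, stood at 41.1 against 8.74 and 5.86, but CIC-D was as high, at 40.3.

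**Figure D2:**
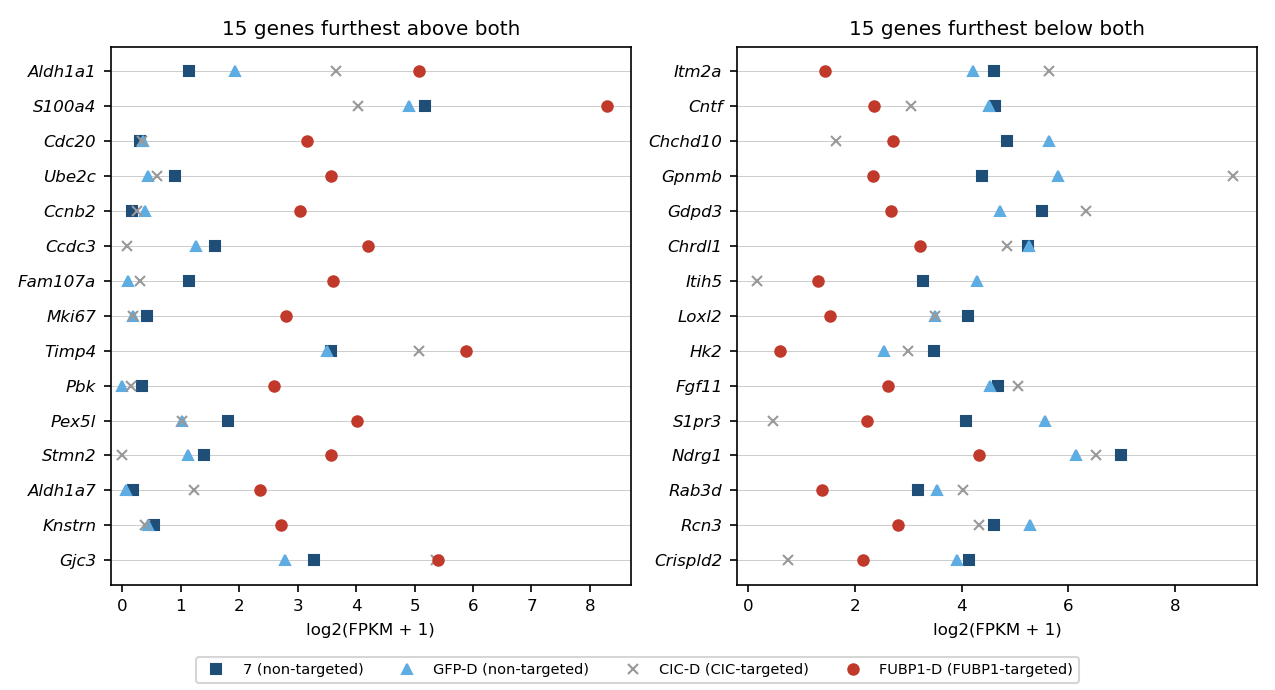
The 15 genes furthest above (left) and the 15 furthest below (right) both controls, ranked by the smaller of the 2 differences. The horizontal axis is log2(FPKM + 1), and symbols mark the 4 differentiating libraries. FUBP1-D stands clear of 7 and GFP-D in every row because the genes were chosen for it, while CIC-D stands with FUBP1-D for Gjc3 and with the controls for Cdc20.

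Genes of mitosis were the group in which FUBP1-D stood apart most widely. Of 47 kept genes 46 lay above both controls and 27 by more than 1, against 34.9% and 1.24% of all rows. The exception was Cdc25b, a phosphatase, at 6.63 FPKM between 5.10 and 8.18. The median difference from the NT mean was 1.39, beside 0.03 over all rows, with medians of 1.30 against 7 and 1.56 against GFP-D. Summed over the list, FPKM was 325 in FUBP1-D, 138 in 7, 95.0 in GFP-D and 130 in CIC-D. The proliferating sums were 3281 in TRC, 1196 in GFP and 3364 in FUBP1, so the level in FUBP1-D stayed far under them. As a median over genes, FUBP1-D kept 14.0% of the proliferating NT level, against 3.36% in 7, 2.22% in GFP-D and 1.98% in CIC-D. No gene of the list passed the limma test. All genes of the list share the 1 FUBP1-D library, so they are not separate observations of the hairpin. In bulk RNA, fewer cells of a type and less RNA per cell cannot be told apart.

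The mitotic genes with the widest margins act from entry into mitosis to its end. Cdc20 (chromosome 4, 118105506 to 118109948, mm9), which activates the anaphase-promoting complex, stood at 7.95 FPKM in FUBP1-D, 0.233 in 7 and 0.273 in GFP-D (difference 2.84, SE 0.96). Ube2c, the ubiquitin-conjugating enzyme of that complex, stood at 10.9 against 0.864 and 0.349 (2.90, SE 0.79). Ccnb2, a mitotic cyclin, stood at 7.22 against 0.121 and 0.314 (2.76, SE 0.79). Mki67, the proliferation antigen Ki-67, stood at 5.93 against 0.331 and 0.135 (2.49, SE 0.55). Pbk, a mitotic kinase, stood at 5.01 against 0.264 and a listed 0, and Knstrn, a spindle and kinetochore protein, at 5.54 against 0.456 and 0.356. These genes were chosen for their margin above both controls, so their distance from the controls is no separate result. In them CIC-D stood at 0.113 to 0.499, with the controls. At the other end of the list the margins were small: Incenp, a centromere protein, stood at 6.92 against 5.13 and 6.74, and Pttg1, or securin, at 15.5 against 12.6 and 6.35.

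The cell cycle control list followed the mitotic genes only in part. In the 26 kept genes of cell cycle control 11 lay above both, 2 of them by more than 1, 10 below both and 5 between. The median was 0.20 from the NT mean, but -0.050 against 7 and 0.20 against GFP-D, so its sign depended on the control. The 2 were Foxm1, a transcription factor of mitotic genes (3.66 against 0.784 and 0.733), and Ccna2, the S and G2 phase cyclin (8.90 against 2.167 and 2.95). Cdk6, a kinase of G1 phase, stood at 2.98 against 1.61 and 0.711. Ccnd1, or cyclin D1, stood at 166 against 131 and 45.3, whereas its relatives Ccnd2 (24.7 against 33.3 and 36.6) and Ccnd3 (20.3 against 30.2 and 37.4) were below both. Cdkn1a, the inhibitor p21, stood at 38.0 against 129 and 69.4.

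DNA replication genes showed a much smaller difference than the mitotic list. Of 35 genes 24 lay above both, 1 of them by more than 1, 5 below both and 6 between, with a median of 0.22. The median share of the proliferating NT level was 13.4% in FUBP1-D, 9.72% in 7 and 11.9% in GFP-D. Mcm5, a helicase subunit, stood at 1.64 FPKM against 0.175 and 0.241. Uhrf1, which keeps DNA methylation through replication, stood at 3.64 against 1.85 and 1.37, and Tk1, thymidine kinase, at 3.06 against 1.32 and 0.705. Cdt1, which loads the helicase in G1 phase, was on the other side at 0.829 against 2.54 and 2.56. Each difference was then set against that in the proliferating state. A positive interaction estimate was found in 41 of the 47 mitotic genes (median 0.66) and 12 of the 35 replication genes (median -0.12). Over all rows 6137 of the 11968 had one (median 0.01), and 0 were called by limma in either list. The estimate holds the same FUBP1-D difference again, so it is not a separate result. It also uses proliferating NT libraries that lay far apart. Summed FPKM in TRC and GFP was 3281 and 1196 for mitosis, and 2079 and 1209 for replication.

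**Figure D3:**
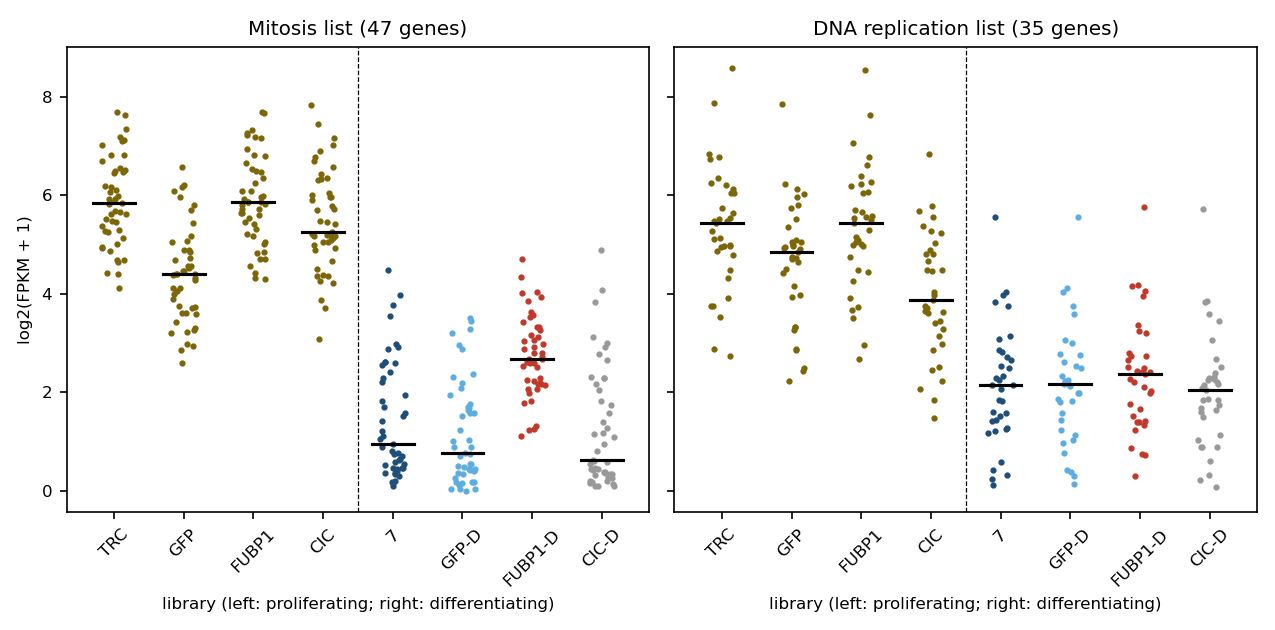
Points are the 47 genes of the mitosis list (left) and the 35 of the DNA replication list (right) in each library, and horizontal bars are medians. The vertical axis is log2(FPKM + 1), and a dashed line separates proliferating from differentiating libraries. The mitosis median is 2.68 in FUBP1-D and 0.94, 0.77 and 0.62 in 7, GFP-D and CIC-D, while the replication medians lie from 2.05 to 2.38.

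The promoters of 4 of these genes are shown because they hold elements known from mitotic genes. These are a CCAAT box (the NF-Y element) and the cell cycle genes homology region, CHR, searched as TTTGAA, each on both strands. The order and spacing of the elements were not part of the search. Sequences are from RefSeq on GRCm38.p6, end at the base before the transcription start, run 5′ to 3′ along the gene's strand, and have CCAAT and CHR matches of either strand in capitals.
Cdc20, chr4:118437344-118437463, minus strand: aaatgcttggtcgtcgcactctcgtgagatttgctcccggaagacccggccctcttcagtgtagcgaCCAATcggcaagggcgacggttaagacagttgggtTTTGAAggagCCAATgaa
Ube2c, chr2:164769679-164769928, plus strand: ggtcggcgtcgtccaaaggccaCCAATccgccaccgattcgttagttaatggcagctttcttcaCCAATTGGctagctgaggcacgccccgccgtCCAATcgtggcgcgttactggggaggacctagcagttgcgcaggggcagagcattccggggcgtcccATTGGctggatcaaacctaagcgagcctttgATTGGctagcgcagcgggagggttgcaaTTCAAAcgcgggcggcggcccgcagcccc
Ccnb2, chr9:70421555-70421754, minus strand: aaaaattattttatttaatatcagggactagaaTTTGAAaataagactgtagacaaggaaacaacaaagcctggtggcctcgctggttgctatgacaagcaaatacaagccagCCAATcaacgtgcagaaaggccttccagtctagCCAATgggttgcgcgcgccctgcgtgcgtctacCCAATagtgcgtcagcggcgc
Mki67, chr7:135716380-135716579, minus strand: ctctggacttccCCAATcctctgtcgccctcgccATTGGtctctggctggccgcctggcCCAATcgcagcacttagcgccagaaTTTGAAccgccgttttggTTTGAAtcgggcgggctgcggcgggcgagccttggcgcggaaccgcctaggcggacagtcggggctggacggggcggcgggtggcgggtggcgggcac
The nearest CHR match lay 18 bases before the start in Cdc20, 29 in Ube2c, 98 in Mki67 and 167 in Ccnb2. In Ccnb2 it lay further from the start than every CCAAT match of the sequence shown. In windows of 300 bases (250 before to 50 after the start), 27 of the 42 promoters of the 40 matched mitotic genes held both elements (64.3%), compared with 6.95% of all 32851 promoters. Of the 33 promoters of 28 matched replication genes 9.09% held both, and 27.3% held an E2F element (TTTCCCGC or TTTGGCGC, both strands), which was in 0 of the mitotic promoters and 1.56% of all. A match describes the letters and not a bound site.

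Cholesterol synthesis genes lay above both controls almost throughout, though by less. Of 23 kept genes 22 were above both, 1 by more than 1, and Sc5d, at 24.1 FPKM between 24.8 and 13.4, was the exception. The median difference was 0.85, made of 0.46 against 7 and 1.02 against GFP-D, and the controls themselves differed by 0.61. Lss (lanosterol synthase) stood at 15.3 FPKM in FUBP1-D against 8.08 in 7 and 6.47 in GFP-D, Mvk (mevalonate kinase) at 18.2 against 7.27 and 10.3, and Idi1 (isopentenyl diphosphate isomerase) at 38.2 against 20.9 and 5.17. No gene of the list had an unadjusted limma p under 0.05. In fatty acid synthesis 8 of 12 genes lay above both (median 0.41), among them Scd1, a desaturase (132 against 79.1 and 52.4), and Fasn, fatty acid synthase (41.1 against 29.6 and 19.6), and 1, the elongase Elovl5, lay below both (134 against 156 and 180).

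The genes furthest below both controls had no single function. Itm2a (chromosome X, 104592534 to 104598699, mm9), a membrane protein, stood at 1.73 FPKM in FUBP1-D, 23.3 in 7 and 17.5 in GFP-D (difference -2.96, SE 1.44). Its level in proliferating NT ran from 2.95 in TRC to 51.8 in GFP, a wider span than that difference. Cntf (chromosome 19, 12838018 to 12840122, mm9), a neurotrophic cytokine of the IL6 type made by astrocytes, stood at 4.12 against 23.8 and 21.8, which agreed closely with each other (difference -2.21, SE 0.46), and CIC-D stood at 7.34. Cntfr, a receptor subunit of that pathway, was also below both, at 10.6 against 16.8 and 22.7. The list of 11 IL6-type genes had 5 below both, 2 above and a median of -0.09. Chrdl1, a secreted BMP antagonist, stood at 8.37 against 36.8 and 37.4. Chchd10, a mitochondrial protein, stood at 5.56 against 28.0 and 48.8, with CIC-D lower still at 2.15. Gpnmb, a lysosomal glycoprotein, stood at 4.08 against 20.0 and 54.6, with CIC-D at 541. S1pr3, a sphingosine-1-phosphate receptor, stood at 3.72 against 16.1 and 46.1, Loxl2, a collagen crosslinking enzyme, at 1.90 against 16.4 and 10.3, and Itih5 at 1.48 against 8.75 and 18.6. Gdpd3 stood at 5.44 against 44.1 and 25.3, and Fgf11, an intracellular FGF homologue, at 5.13 against 24.8 and 22.1. Rab3d, Rcn3 and Crispld2 stood at 1.62 to 6.00 in FUBP1-D and at 8.11 to 38.1 in the controls, and Hk2 and Ndrg1, described next, completed the 15.

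Glycolysis and hypoxia-responsive genes lay below both controls more often than the 28.3% of all rows. Among 22 kept glycolysis genes 12 lay below both, 3 by more than 1, 2 above and 8 between (median -0.61). Among 17 hypoxia genes 11 lay below both, 2 by more than 1, 0 above and 6 between (median -0.62). Hk2 (chromosome 6, 82675021 to 82724448, mm9), an inducible hexokinase, stood at 0.513 FPKM in FUBP1-D, 10.2 in 7 and 4.87 in GFP-D (difference -2.42, SE 0.52). Slc16a3, the lactate exporter MCT4, stood at 0.446 against 8.12 and 2.25, and Eno2, an enolase, at 15.3 against 65.5 and 48.2. Ndrg1, a stress-responsive gene, stood at 19.1 against 125 and 69.5, and Vegfa, the endothelial growth factor, at 27.1 against 149 and 92.0. Ero1l, an oxidoreductase of the endoplasmic reticulum, stood at 22.1 against 209 and 43.7, and Bnip3, a mitophagy receptor, at 45.1 against 190 and 78.5. The margin under GFP-D was small for most: the list medians against GFP-D were -0.23 and -0.16, against -1.05 and -0.99 relative to 7, and the controls differed from each other by 0.90 and 0.98. Aldoc, an aldolase that also marks astrocytes, lay on the other side at 126 against 57.1 and 8.31, as did Pfkm, a phosphofructokinase (109 against 78.0 and 97.2). Hif1a, the oxygen-regulated factor, lay between the controls at 67.9 against 54.5 and 76.2. Glycolytic genes have processed pseudogenes that can take or lend reads.

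**Figure D4:**
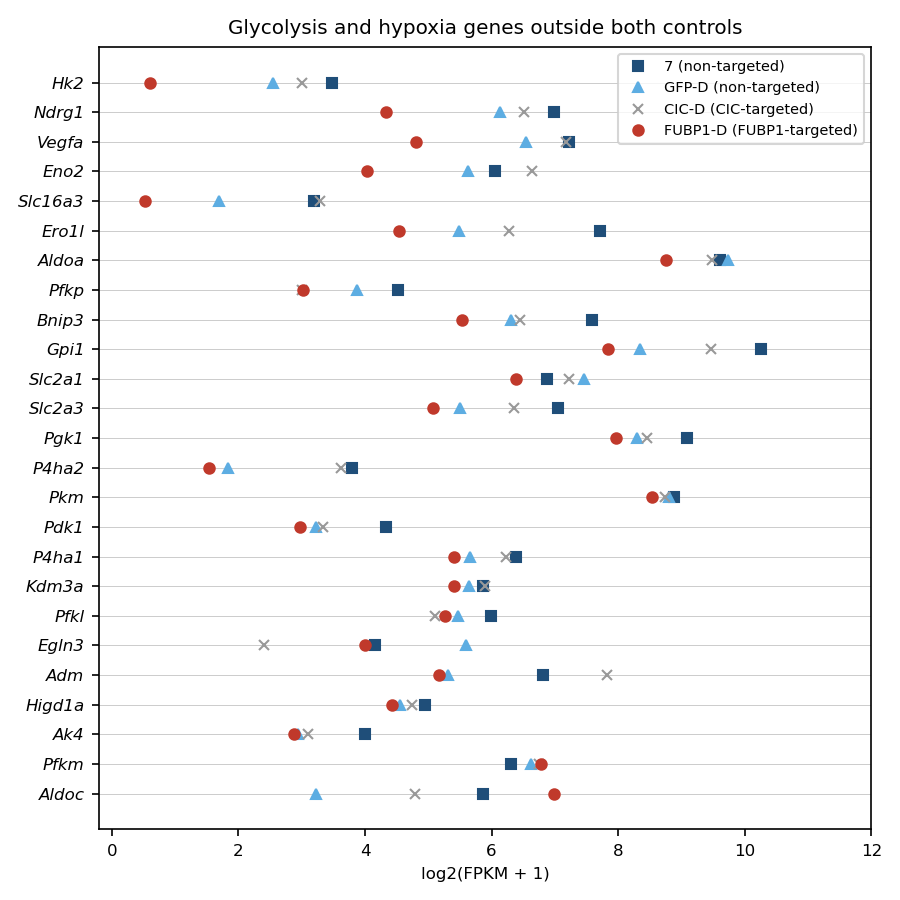
The 25 glycolysis and hypoxia genes for which FUBP1-D lay outside both controls, on a log2(FPKM + 1) axis, with symbols for the 4 differentiating libraries. In 23 rows FUBP1-D lies left of 7 and GFP-D, and in the last 2 rows, Pfkm and Aldoc, it lies right of them.

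The promoters of Hk2 and Slc16a3 are shown for the hypoxia response element, searched as TACGTG or GACGTG on both strands and set in capitals. They are from the same RefSeq build and drawn in the same way.
Hk2, chr6:82774455-82774704, minus strand: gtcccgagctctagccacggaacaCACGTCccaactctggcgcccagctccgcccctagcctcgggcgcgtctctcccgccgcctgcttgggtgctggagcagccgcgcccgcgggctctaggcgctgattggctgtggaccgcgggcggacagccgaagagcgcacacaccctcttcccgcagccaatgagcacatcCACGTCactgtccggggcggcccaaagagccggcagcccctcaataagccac
Slc16a3, chr11:120949007-120949066, plus strand: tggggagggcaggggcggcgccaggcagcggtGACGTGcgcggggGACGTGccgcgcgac
Each window holds 2 matches, the nearest 52 bases before the start in Hk2 and 15 in Slc16a3. The element was in 13 of 34 promoters of the glycolysis list (38.2%) and 9 of 24 of the hypoxia list (37.5%), compared with 9.35% of all promoters and 11.9% of the mitotic ones.

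Stress and p53 target genes leaned to the lower side. Of 19 kept p53 targets 12 lay below both, 1 by more than 1, 2 above and 5 between (median -0.37). Bbc3, the apoptosis effector PUMA, stood at 10.4 FPKM against 25.9 and 23.0, Phlda3, an AKT inhibitor, at 29.4 against 47.8 and 45.5, and Mdm2, the ligase that degrades p53, at 28.5 against 43.6 and 63.2 beside Cdkn1a, given above. Trp53 itself was at 65.7 against 73.9 and 79.8. Plk2, a kinase (23.7 against 17.1 and 12.9), and Ei24 (86.8 against 74.4 and 85.6) were above both. Of 16 genes of the ATF4 stress response 9 lay below both and 1 above (median -0.53). Trib3, a pseudokinase, stood at 0.283 against 1.85 and 11.8, Cebpb, a transcription factor, at 16.2 against 31.3 and 38.6, and Nupr1 at 39.5 against 66.4 and 220. Psat1, an enzyme of serine synthesis, stood at 170 against 93.5 and 122. Of 15 immediate early genes 8 lay below both and 1, Atf3, above (median -0.28), with Fosb at 1.09 against 2.57 and 2.71. Of 24 lysosomal genes 14 lay below both and 2 above (median -0.23), with Lgmn, a protease, at 80.2 against 197 and 189 and Ctsl, a cathepsin, at 183 against 346 and 421. No gene of these 4 lists had an unadjusted limma p under 0.05.

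Astrocyte genes did not stand on 1 side. Of 21 kept markers 10 lay above both, 3 by more than 1, 4 below and 7 between (median 0.38). Sparcl1, a secreted matrix protein, stood at 933 FPKM against 359 and 51.5, and Gja1, the connexin 43 gene, at 274 against 82.3 and 115. Aldh1l1, a folate enzyme used as an astrocyte marker, stood at 328 against 172 and 47.3, and Slc1a2, a glutamate transporter, at 32.1 against 15.8 and 15.8. The other glutamate transporter, Slc1a3, was below both (236 against 405 and 322), as was Apoe (970 against 1493 and 2180.1). Gfap, the intermediate filament of astrocytes, lay between the controls at 61.1 against 67.9 and 31.9, and Aqp4, a water channel, at 108 against 77.5 and 258. The controls differed by a median of 0.52 on this list.

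Oligodendrocyte lineage genes lay above both or between, never below. Of 11 kept genes 5 were above both, 2 by more than 1, and 6 between (median 0.36, with 0.16 against 7 and 0.68 against GFP-D). Olig1, a lineage transcription factor, stood at 673 FPKM against 197 and 303, and Olig2 at 180 against 88.0 and 112. The myelin gene Mbp lay between, at 1.70 against 3.34 and 0.262. Of 20 progenitor genes 9 lay above both, 2 by more than 1, 5 below and 6 between. The progenitor median was 0.32 from the NT mean, but -0.032 against 7 and 0.47 against GFP-D, so its sign depended on the control. Fabp7, a radial glial fatty acid-binding protein, stood at 619 against 202 and 149, Cd24a, a surface glycoprotein, at 173 against 80.5 and 50.2, and Notch1 at 74.2 against 36.6 and 40.8. Pax6 (7.47 against 13.5 and 18.4) and Nr2e1 (5.80 against 13.2 and 9.55), both transcription factors of neural stem cells, were below both. In the Notch pathway Lfng, a modifier of the receptor (81.2 against 42.9 and 44.2), and the target Hes1 (10.5 against 5.72 and 7.12) were above both, and the ligand Jag2 was below (0.548 against 1.93 and 2.77), with 5 of 12 above and 4 below.

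Neuronal genes were low in all 3 libraries apart from a few. Only 14 of 31 listed markers passed the filter on low values, and of these 8 lay above both, 3 by more than 1, 3 below and 3 between (median 0.53). Stmn2, a neuronal microtubule protein, stood at 10.8 FPKM against 1.62 and 1.18 and was listed at 0 in CIC-D. Celf4, a neuronal RNA-binding protein, stood at 11.9 against 3.62 and 4.78, and Stmn3, a relative of Stmn2, at 1.95 against 0.154 and a listed 0. Tubb3, the neuronal tubulin, lay between at 2.70 against 0.4997 and 3.68, and Map2, a dendritic protein, was below both at 42.2 against 51.2 and 57.8.

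The remaining lists did not share a direction. The retinoic acid list leaned to the lower side, with 63.6% of its genes below both controls beside 28.3% of all rows. Of 11 retinoic acid genes 3 lay above both, 2 by more than 1, and 7 below (median -0.48): beside Aldh1a1, the binding protein Crabp1 stood at 6.11 against 1.37 and 0.139, whereas the receptors Rxrb (16.6 against 24.9 and 24.7) and Rara (8.88 against 15.8 and 12.2) were below both. Of 17 S100 and annexin genes 8 lay above both and 2 below (median 0.16), and S100a4 was the only member beyond 1. Matrix genes had 10 of 27 above both and 4 below (median 0.34, with 0.1002 against 7 and 0.42 against GFP-D), and the basement membrane collagen Col4a1 stood at 30.0 against 12.1 and 0.180 and the protease Mmp14 at 88.9 against 46.3 and 34.5. ERK and capicua targets had 9 of 20 above and 5 below (median 0.22, with 0.020 against 7 and 0.48 against GFP-D), and 2 phosphatases of that pathway lay on opposite sides, Dusp6 at 24.5 against 16.5 and 11.5 and Dusp4 at 4.76 against 16.3 and 10.2. BMP and Id genes had 8 of 14 above and 4 below (median 0.23), with Id2 at 49.5 against 31.8 and 31.5. Respiratory chain genes (22, median 0.01) and endoplasmic reticulum chaperones (17, median 0.01) were centred near 0, with signs that differed between the controls. Interferon genes had 1 of 27 above both (Iigp1) and 2 below (Tap1 and Psmb9). The controls lay far apart on this list: the median of 7 minus GFP-D was 1.53, and FUBP1-D stood -0.84 from 7 and 1.19 from GFP-D.

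**Figure D5:**
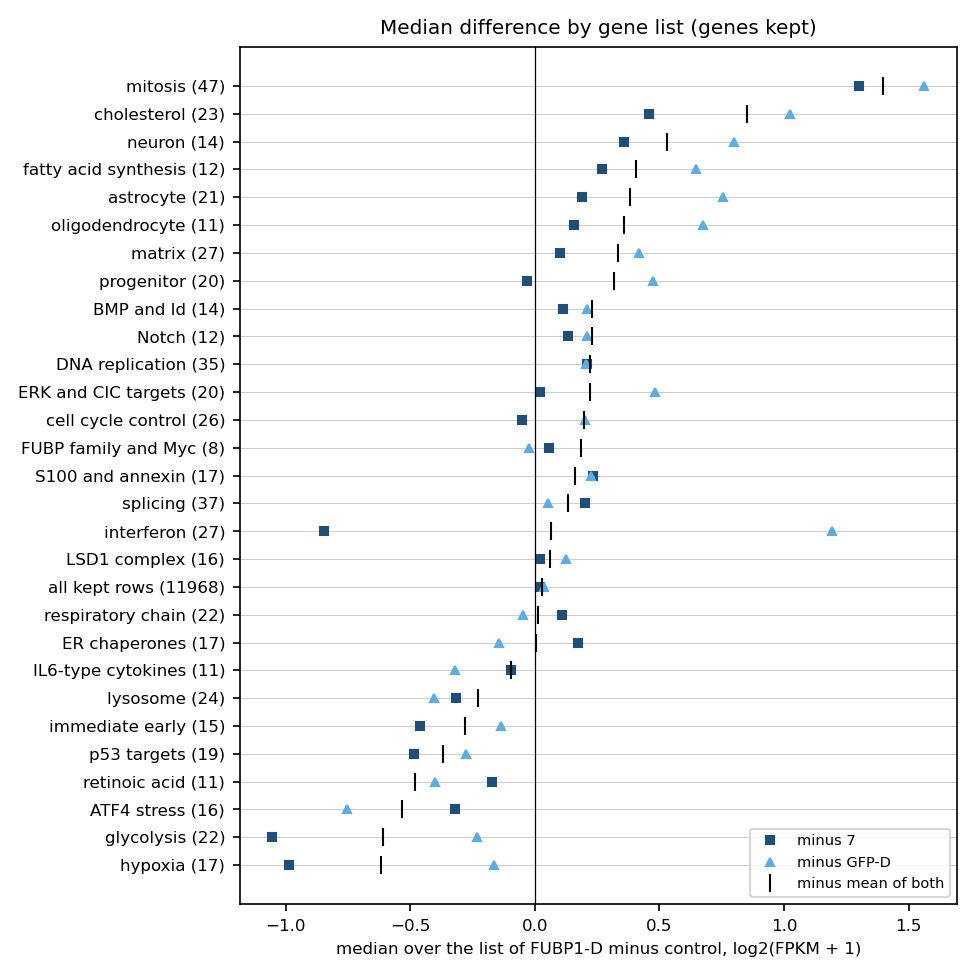
For each gene list, with the number of genes kept in parentheses, the median of FUBP1-D minus 7 (squares), minus GFP-D (triangles) and minus the mean of both (bars), on the log2(FPKM + 1) scale. The list marked FUBP family and Myc also holds D cyclins. Mitosis is furthest right at 1.39 and glycolysis and hypoxia furthest left at -0.61 and -0.62. The 2 controls give medians of opposite sign for interferon genes, at -0.84 and 1.19.

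Set directly against the CIC-targeted library of the same medium, FUBP1-D differed in 1 gene by limma (0.00836% of rows), with 563 at an unadjusted p under 0.05. The gene was Serpinh1, a collagen chaperone, at 157 FPKM in FUBP1-D and 0.207 in CIC-D (log2 difference 7.04, adjusted p = 0.0455). The controls stood at 88.2 and 93.5, and CIC-D lay far below both. On the mitosis list FUBP1-D lay above CIC-D in 44 of 47 genes (median difference 1.53), beside 6463 of the 11968 rows (median 0.05), a list in which CIC-D lay near the controls.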

How the data were processed

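Total RNA from 8 libraries was sequenced after TruSeq preparation, per the labels' protocols. The authors deposited 1 table of FPKM values per gene and library. The submitters' processing notes name genome mm9, Cufflinks 2.1.1, TopHat2 2.0.11, cutadapt and bcl2fastq 2.17. Settings, annotation and strand use are not given there, so overlapping, antisense and near-identical genes are uncertain. Gene positions are the table's, counted from 1. Values were used as log2(FPKM + 1), which understates differences of low genes. Of 20793 rows, 11968 reached 1 FPKM in at least 2 of the 8 libraries and were kept. limma 3.58.1 in R 4.3.3 (trend, two-sided, Benjamini-Hochberg over all kept rows, threshold 0.05) was fitted to the means of the 6 groups. Its 2 residual degrees of freedom come from the NT pairs, so a single library was taken to vary as they do. The script was tested on simulated data. Named genes were the targeted genes and Kdm1a, the 15 furthest above and below both controls, and from each list up to 4 members with the largest margin, any member beyond 1, and defining members; members named outside this rule were chosen after their values were seen. The comparison and the gene lists were chosen with earlier results of these data known. A few list members are counted but not reported here by name.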

Additional observations from a re-analysis of the deposited data

How the results depend on the processing

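The main limit is 1 FUBP1 library against 2 controls of unknown depth. With a pseudocount of 0.1 the genes more than 1 above and below both numbered 262 and 206, with a pseudocount of 5 they numbered 38 and 27, and at a threshold of 2 they numbered 18 and 6. With a single control left they ran from 325 to 624 above (without GFP-D and without 7) and from 317 to 540 below. FUBP1-D against NT gave 1 limma call without the filter on low values (Pou2af1, adjusted p = 0.035). FUBP1-D against CIC-D gave 2 calls at a pseudocount of 0.1, 6 in an additive model (state plus hairpin target), and 0 at a pseudocount of 5, with median-of-ratios rescaling, without the filter and without any single NT library (0 to 0). The mitosis median was 2.32 and 0.62 at pseudocounts of 0.1 and 5. The replication median was 0.28 and 0.11 there, 0.19 with median-of-ratios rescaling, and 0.205 to 0.208 with 1 control left out. At a pseudocount of 5 the median of the FUBP family list, with Myc and D cyclins, was 0.075 and the BMP and Id median 0.15. Leaving out 1 control in turn moved these list medians, among others: fatty acid synthesis from 0.27 to 0.65, astrocyte from 0.19 to 0.76, LSD1 complex from 0.022 to 0.13, FUBP family from -0.022 (without 7) to 0.057, retinoic acid from -0.40 to -0.17, BMP and Id from 0.11 to 0.21, glycolysis from -1.05 to -0.23, hypoxia from -0.99 to -0.16, cholesterol from 0.46 to 1.02, oligodendrocyte from 0.16 to 0.68, neuron from 0.36 to 0.80, ERK and CIC targets from 0.020 to 0.48 and matrix from 0.1002 to 0.42. It also turned the sign for cell cycle control (-0.050 without GFP-D), progenitor (-0.032 without GFP-D), interferon (-0.84 without GFP-D), chaperones (-0.15 without 7) and respiratory chain (-0.046 without 7), the last pair also with median-of-ratios rescaling (-0.024 and -0.018). The Fubp1 difference turned to 0.12 in the additive model, which also draws on the proliferating libraries. The causes were not tested. The other 311 recomputed values of named genes kept their direction and, in limma, their side of the adjusted threshold, though sizes moved: at a pseudocount of 5 the Mcm5 difference went from 1.13 to 0.35 and that of Foxm1 from 1.41 to 0.59. No paired analysis was possible because replicate numbers follow accession order and there is 1 FUBP1 library in the state.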

Other observations

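The metallothioneins Mt1 and Mt2, small metal-binding proteins among the most abundant transcripts here, belonged to no list and were chosen after their values were seen. Mt1 stood at 1482 FPKM in FUBP1-D, 4385 in 7, 4864 in GFP-D and 6696 in CIC-D. Mt2 stood at 1118 in FUBP1-D, 2816 in 7, 5074 in GFP-D and 3235 in CIC-D. Pou2af1, a transcriptional coactivator of B cells, did not pass the filter on low values: it was at 3.83 FPKM in FUBP1-D and listed at 0 in 7, GFP-D and CIC-D. Actr3, Gpx3 and Six3 were listed at 0 in GFP-D while FUBP1-D and 7 were above 5 FPKM, at 87.3 and 93.2, 9.39 and 6.39, and 12.6 and 29.1, and a 0 in such a table can be a failed estimate.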
